A study of Mus musculus with 2 samples.

Results

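Purine and NAD salvage genes encode the transporters and enzymes that take up, recycle and break down purine nucleosides, purine bases and the coenzyme NAD. A list of 10 such genes was described: Slc28a2, Entpd1, Ada, Adk, Pnp, Hprt, Gda, Xdh, Nampt and Cd38. They are 10 of the 10545 genes named in these data, of which 8371 had at least 20 reads. For each gene, reads on splice junctions that match its annotated introns were summed in each library. The genes were chosen by these summed reads themselves, from the ratio of IL-10 to untreated per gene and per intron, so their ratios are a description and carry no test. A group of macrophages received interleukin 10 (IL-10, a cytokine that restrains inflammation) at 100 ng/ml, 4 h before RNA was taken, and the other was left untreated, and each gave 1 RNA-seq library. Both came from adherent peritoneal exudate cells of male C57BL/6JJcl mice, drawn out by thioglycolate, an irritant broth. The labels give no age and do not say whether animals were pooled, and the protocol given for untreated cells is the same text as for treated cells, so the groups follow the sample titles.

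Cells obtain purines either by building them from small precursors or by salvage of bases and nucleosides, which costs less energy. In salvage, nucleosides are carried into the cell, adenosine is phosphorylated or deaminated, inosine and guanosine are split into bases, and the bases are returned to nucleotides or oxidised to uric acid. NAD is handled in a similar cycle, in which enzymes that cut NAD release nicotinamide and a salvage enzyme turns it back. In macrophages these routes also affect the amount of extracellular ATP, adenosine and NAD, which act as signals on surface receptors.

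The IL-10 library held 3998954 spliced reads on 109870 junctions and the untreated library 4035991 on 110102. Reads on introns of a single named gene, the base of all scaled values, numbered 3843587 with IL-10 and 3871887 untreated. Without replicates, every ratio sets one library against the other and not the conditions, and the 95% intervals hold counting error alone. Of 12 macrophage markers 10 were measured, with 64995 IL-10 and 79996 untreated reads in sum. They did not move alike: 4 had intervals above 1 (Msr1 at 1.82, Mrc1 at 1.44, Itgam at 1.32 and Fcgr1 at 1.21), 4 had intervals below 1 (Lyz2 at 0.712, Csf1r at 0.860, Mertk at 0.863 and Cd68 at 0.868), and Adgre1 (F4/80) stood at 0.966. The Itgam value and its part of the sum rest on introns of 1 gene alone (521 IL-10 and 397 untreated reads). With introns shared with other gene models, Itgam had 9974 IL-10 and 8595 untreated reads, at 1.17 (1.14 to 1.20). Measured markers of other cells were fewer: 4 of 12 for neutrophils (951 IL-10 and 882 untreated reads in sum), 2 of 8 for B cells (484 IL-10, 539 untreated), 2 of 8 for eosinophils and mast cells (96 IL-10, 59 untreated), 5 of 8 for fibroblasts and mesothelium (1250 IL-10, 1148 untreated) and 0 of 8 for T and NK cells. The eosinophil marker Siglecf stood at 1.80 (1.25 to 2.63). The mast cell marker Tpsb2, also measured, stood at 0.916 (0.349 to 2.38), and Epx, Prg2, Fcer1a and Ccr3 of that list had no named junction. The neutrophil genes measured were Csf3r (311 IL-10 and 267 untreated reads), Mmp8 (231 IL-10, 221 untreated), Mmp9 (390 IL-10, 380 untreated) and Lcn2 (19 IL-10, 14 untreated). S100a8, S100a9, Ly6g, Cxcr2, Camp, Ltf, Elane and Mpo had no named junction. Such a gene may still be expressed, since naming needed at least 2 of its introns to match. The part of these cells in the values below was not tested. In bulk RNA, fewer cells that carry a transcript and less of it per cell cannot be told apart.

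Of the 10 genes, the nucleoside transporter gene Slc28a2, the guanine deaminase gene Gda and the NAD-consuming enzyme gene Cd38 stood 3-fold or more higher in the IL-10 library, at ratios of 3.06, 3.52 and 4.96. Xanthine dehydrogenase (Xdh) was also higher, at 1.38. The ectonucleotidase gene Entpd1 was lower, at 0.555, and Hprt was lower to a smaller degree, at 0.834. Purine nucleoside phosphorylase (Pnp) and the NAD salvage enzyme gene Nampt lay near 1. All 10 had at least 20 reads, between 27 and 6591 in both libraries together. Calls needed a change of 2-fold or more in either direction and an interval that excludes 1. By that rule 3 of the 10 were higher, against 1.76% of all 8371 genes (147), and 0 were lower, against 1.48% (124). At 1.5-fold, 3 were higher (4.26% of all genes) and 1, Entpd1, was lower (4.01%). Nothing is read from these counts, because the same contrast chose the genes. The median log2 ratio was 0.30 for the 10 genes and 0.00 for all genes tested, whose SD was 0.44.

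**Figure D1:**
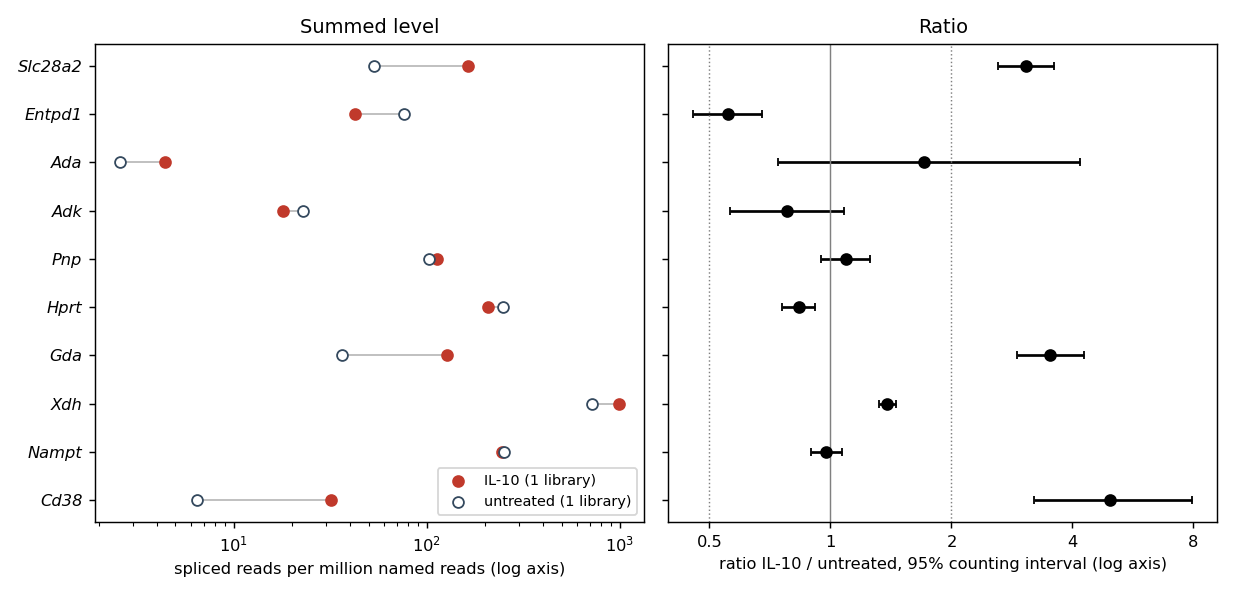
Spliced reads per 1000000 named reads of the 10 genes (left, log axis, filled points IL-10, open points untreated) and the ratio of IL-10 to untreated with its 95% counting interval (right, log axis, dotted lines at 0.5 and 2). Slc28a2, Gda and Cd38 lie right of 2 with their whole intervals, and Entpd1 lies left of 1 at 0.555.

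Levels can be compared between genes only per junction, since a gene with more introns collects more spliced reads. On that scale (reads per matched junction per 1000000 named reads) the genes fell into a high set and a low set in both libraries. Hprt (29.5 with IL-10, 35.4 untreated), Xdh (27.6 IL-10 and 19.9 untreated), Pnp (22.5 IL-10 and 20.6 untreated) and Nampt (22.4 IL-10 and 22.9 untreated) formed the high set, between percentiles 91.2 and 95.3 of the genes tested. Gda had 9.85 IL-10 and 2.80 untreated, Slc28a2 8.57 IL-10 and 2.80 untreated, Cd38 4.57 IL-10 and 0.922 untreated, Entpd1 4.24 IL-10 and 7.64 untreated, Adk 1.38 IL-10 and 1.77 untreated, and Ada 0.553 IL-10 and 0.323 untreated. In this order Gda and Slc28a2 had nearly the same level as each other in each library. Cd38 stood below Entpd1 and Adk in the untreated library, and above Adk and close to Entpd1 in the IL-10 library. There the order of Cd38 and Entpd1 depends on which junctions are counted. The Entpd1 level is divided by 10 junctions, among them a junction with 0 IL-10 and 2 untreated reads. By percentile among genes tested, Gda was at 81.9 with IL-10 and 48.9 untreated, and Cd38 at 64.1 IL-10 and 15.9 untreated. By ratio rather than level, of 5893 genes with at least 100 reads, 1 had a higher ratio than Cd38, 6 than Gda and 9 than Slc28a2, while 32 had a lower ratio than Entpd1. Those above Gda include Cd38, and those above Slc28a2 include Cd38 and Gda. Nothing is read from these ranks, because the same ratio chose the genes.

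**Figure D2:**
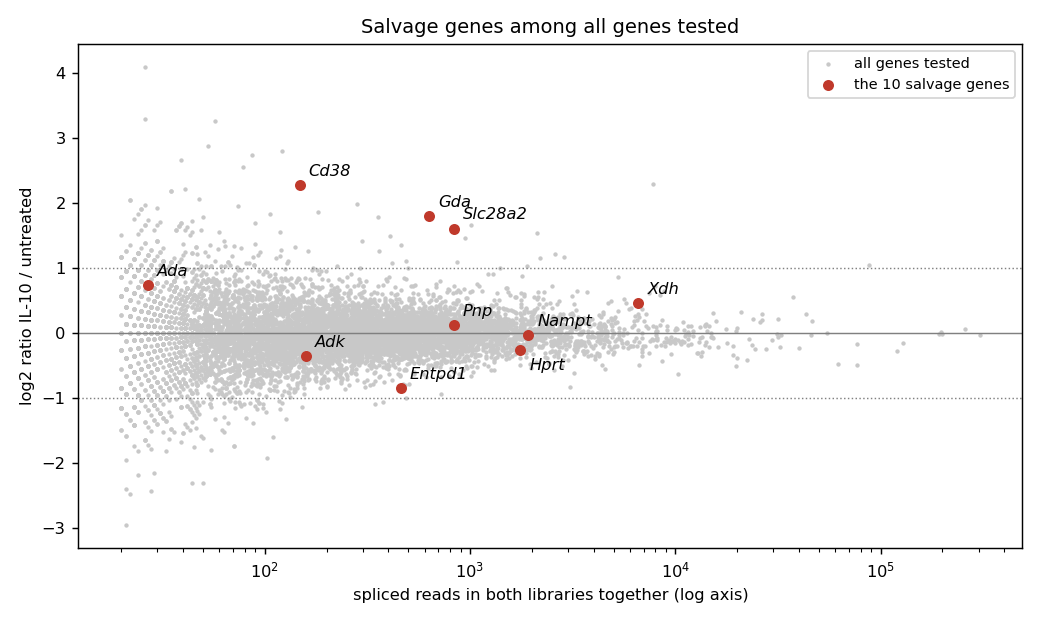
Log2 ratio of IL-10 to untreated (y axis) against spliced reads in both libraries together (x axis, log scale) for all 8371 genes tested (grey) and the 10 salvage genes (red). Cd38, Gda and Slc28a2 sit above the dotted line at a log2 ratio of 1. Nampt sits close to 0, Hprt sits at -0.26, and Xdh, the most read of the 10, sits at 0.47.

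Slc28a2 encodes the sodium-coupled transporter CNT2, which concentrates purine nucleosides in the cell. It had 626 IL-10 reads and 206 untreated reads, a ratio of 3.06 (95% interval 2.61 to 3.60). Of its 17 matched junctions with 5 or more reads, 16 were higher with IL-10, and intron 6, with 5 IL-10 and 7 untreated reads, was the exception. Among 13 junctions with at least 20 reads the ratio ranged from 1.89 to 8.31. The most read intron was intron 2, with 143 IL-10 and 44 untreated reads (3.27, 2.32 to 4.70), between the exons whose joined coding sequence is printed here, the downstream exon in capitals. It is shown because no other intron of the gene had as many reads, and comes from the GENCODE M21 transcript.
Slc28a2 exons 2 and 3: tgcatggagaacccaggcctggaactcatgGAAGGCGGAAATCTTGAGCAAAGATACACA

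Transcripts of Slc28a2 can begin at a far or a near first exon, whose donor sites lie 14371 bases apart on chromosome 2 in mm9. Reads that left the near exon numbered 115 with IL-10 and 35 untreated (ratio 3.31, 2.25 to 4.98), and reads that left the far exon numbered 11 IL-10 and 3 untreated (3.69, 0.976 to 20.6). The near exon thus took 91.3% (exact 95% interval 84.9 to 95.6) of such reads with IL-10 and 92.1% (78.6 to 98.3) without, a difference within counting error. From the near exon, splicing used a pair of acceptors 3 bases apart. The upstream acceptor, at chr2:122266743-122267294, had 66 IL-10 and 20 untreated reads, and the downstream one, at chr2:122266743-122267297, had 49 IL-10 and 15 untreated. Their shares of these reads were 57.4% and 42.6% with IL-10, against 57.1% and 42.9% untreated, so both forms had higher counts with IL-10.

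A near copy of Slc28a2 lies next to it on chromosome 2 and shares its direction. This gene, Gm14085 in GENCODE and Slc28a2b in RefSeq, is identical to Slc28a2 at 94.8% of aligned coding bases, so reads cannot always be assigned to one of them. Gm14085 had 216 IL-10 reads and 81 untreated reads (ratio 2.69, 2.07 to 3.51). A further 8 junctions ran from Slc28a2 into Gm14085, with 65 IL-10 and 24 untreated reads in sum (2.73, 1.68 to 4.56). Taken as one unit, the pair and the junctions between them had 907 IL-10 and 311 untreated reads, at a ratio of 2.94 (2.58 to 3.35). The reads were not spread alike along the copies. Slc28a2 held 143 IL-10 and 44 untreated reads at intron 2, where Gm14085 had 0 in both libraries, whereas at intron 17 Slc28a2 had 3 IL-10 and 0 untreated and Gm14085 had 75 IL-10 and 31 untreated. At intron 8, Slc28a2 had 29 IL-10 and 10 untreated reads, Gm14085 had 12 IL-10 and 7 untreated, and a junction from the Slc28a2 donor to the Gm14085 acceptor had 30 IL-10 and 11 untreated. The 80 bases around that splice differ at 2 positions, C20T and A22C from Slc28a2 to Gm14085, counted from 1 at the 5′ end. Those bases are in capitals below, both upstream of the splice point after base 40.
Slc28a2 exons 8 and 9: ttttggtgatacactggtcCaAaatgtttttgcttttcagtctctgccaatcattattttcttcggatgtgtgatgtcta
Gm14085 exons 8 and 9: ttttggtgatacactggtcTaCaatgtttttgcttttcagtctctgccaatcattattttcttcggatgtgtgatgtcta

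Entpd1 encodes CD39, a surface enzyme that removes phosphates from extracellular ATP and ADP. It was the gene of the list with the lowest ratio, with 163 IL-10 reads and 296 untreated reads (0.555, 0.455 to 0.674). Intervals below 1 without a minimum fold were found for 13.1% of all genes tested. Introns 3, 4, 8 and 9 each had an interval below 1, with 24 IL-10 and 52 untreated reads, 18 IL-10 and 48 untreated, 27 IL-10 and 52 untreated, and 29 IL-10 and 65 untreated. Intron 2 had 15 reads in each library and intron 6 had 25 IL-10 and 19 untreated (1.33, 0.701 to 2.55), so 6 of 8 introns that had 5 or more reads were lower with IL-10. On intron 9 alone, the most read, the ratio was 0.449 (0.280 to 0.706) and would pass the rule.

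The enzymes that act on adenosine had few reads. Adenosine deaminase (Ada), which turns adenosine into inosine, had 17 IL-10 reads and 10 untreated reads (1.71, 0.741 to 4.19). These were spread over 8 introns of which the highest, intron 9, had 7 IL-10 and 1 untreated. Adenosine kinase (Adk), which turns adenosine into AMP, had 69 IL-10 reads and 89 untreated reads (0.781, 0.562 to 1.08). Its introns are long, up to 77441 bases, and disagreed among themselves: intron 2 had 4 IL-10 and 15 untreated reads, intron 3 had 20 IL-10 and 18 untreated, and intron 10 had 12 IL-10 and 8 untreated. For both genes the interval includes 1, so a difference was not detectable at this depth.

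Purine nucleoside phosphorylase (Pnp) splits inosine and guanosine into a base and ribose phosphate. It had 432 IL-10 reads and 399 untreated reads (1.09, 0.9497 to 1.25). Most of these lay on 3 introns shared with the read-through gene model Gm49342. On the introns that belong to Pnp alone there were 97 IL-10 and 73 untreated reads (1.34, 0.978 to 1.84), also with an interval that includes 1. Pnp too has a tandem copy, Pnp2, identical at 93.1% of aligned coding bases, with 180 IL-10 and 145 untreated reads (1.25, 0.999 to 1.57). A further 3 junctions ran from Pnp into Pnp2, with 9 IL-10 and 13 untreated reads in sum (0.697, 0.263 to 1.76). Taken as one unit, the pair and these junctions had 621 IL-10 and 557 untreated reads. Their ratio was 1.12 (1.0001 to 1.26), with an interval that only just excludes 1. Pnp intron 4 had 0 reads in both libraries, although its neighbours intron 3 (75 IL-10 and 72 untreated) and intron 5 (97 IL-10 and 71 untreated) were well covered. Pnp2 intron 4 had 74 IL-10 and 82 untreated reads between neighbours with 13 IL-10 and 6 untreated and with 4 IL-10 and 6 untreated. The 80 bases around this splice are the same in both genes, so a read that lies within them fits both, and they are printed with the downstream exon starting after base 40.
Pnp exons 4 and 5: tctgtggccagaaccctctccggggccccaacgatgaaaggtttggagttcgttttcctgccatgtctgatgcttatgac

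Hypoxanthine-guanine phosphoribosyltransferase (Hprt) returns hypoxanthine and guanine to the nucleotide pool, and its gene is often used as a reference. It had 795 IL-10 reads and 960 untreated reads (0.834, 0.758 to 0.917). Its introns did not share this ratio. Introns 1 and 2 together had 141 IL-10 and 264 untreated reads (0.538, 0.435 to 0.663), whereas the introns from intron 3 on had 654 IL-10 and 696 untreated (0.947, 0.849 to 1.05), a stretch chosen after the values were seen. Intron 3 alone held 453 IL-10 and 493 untreated reads, more than all others together, at 0.926 (0.813 to 1.05). Intron 4 had 0 IL-10 and 11 untreated reads, and intron 5 had 0 in both. These flank exon 5, which is 18 bases long. The 3′ introns stood at 0.997 and the 5′ introns (1 to 3) at 0.790, a log2 difference of 0.34, at percentile 88.6 of 2299 genes with at least 500 reads, whose median difference was 0.00 with quartiles of -0.19 and 0.19. The cause of this pattern was not tested.

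Gda encodes guanine deaminase (cypin), which turns guanine into xanthine and so removes it from salvage. It had 492 IL-10 reads and 141 untreated reads, a ratio of 3.52 (2.91 to 4.27). All 13 introns were read and all 13 were higher with IL-10, 11 of them with an interval above 1. Across the 8 introns with at least 20 reads the ratio ranged from 2.55 (intron 12) to 4.78 (intron 5, 19 IL-10 and 4 untreated reads). Intron 4 had 161 IL-10 and 39 untreated reads (4.16, 2.92 to 6.06), intron 3 had 83 IL-10 and 26 untreated, and intron 13 had 52 IL-10 and 19 untreated. Intron 8 had 16 IL-10 and 0 untreated reads, which is at least 5.37-fold higher when the untreated value is set to 3 reads. The 5′ introns (1 to 6) stood at 3.61 (2.86 to 4.59) and the 3′ introns at 3.34 (2.40 to 4.71). The coding sequence joined at intron 4 is printed as the splice with the most reads, exon 5 in capitals.
Gda exons 4 and 5: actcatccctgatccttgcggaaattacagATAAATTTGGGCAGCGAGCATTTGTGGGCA

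Xdh encodes xanthine dehydrogenase, which oxidises hypoxanthine to xanthine and xanthine to uric acid, the step after guanine deaminase. It was the most read gene of the list, with 3815 IL-10 reads and 2776 untreated reads (1.38, 1.32 to 1.45). Intervals above 1 were found for 12.8% of all genes tested. Of its 35 introns with at least 20 reads, 31 were higher with IL-10, and 16 had an interval above 1 and 0 had one below 1. Ratios ran from 0.811 at intron 32 (62 IL-10 and 77 untreated reads) to 2.27 at intron 31 (27 IL-10 and 12 untreated). The 5′ introns (1 to 18) stood at 1.25 (1.16 to 1.34) and the other junctions at 1.51 (1.41 to 1.61), a log2 difference of 0.27 at percentile 83.8 of the genes described for Hprt. Xdh was below 2-fold in both parts.

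Nampt encodes nicotinamide phosphoribosyltransferase, the rate-limiting enzyme of NAD salvage from nicotinamide. It had 947 IL-10 reads and 976 untreated reads (0.977, 0.893 to 1.07). Its junctions lay on both sides, 5 of 11 on the side of the sum. Intron 4 had 147 IL-10 and 208 untreated reads (0.712, 0.572 to 0.884) and intron 3 had 80 IL-10 and 121 untreated (0.666, 0.496 to 0.891), while intron 2 had 172 IL-10 and 151 untreated and intron 7 had 44 IL-10 and 28 untreated. Among 10 introns with at least 20 reads the ratio ran from 0.666 to 1.58. Single introns hold fewer reads than the sum and so vary more by counting error alone. Of the 11 junctions, 2 had an interval below 1 (introns 3 and 4) and 0 had one above 1.

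Cd38 encodes a surface enzyme that cuts NAD into nicotinamide and ADP-ribose or cyclic ADP-ribose. It had 123 IL-10 reads and 25 untreated reads, the highest ratio of the list at 4.96 (3.20 to 7.95). All 7 introns were read and all 7 were higher with IL-10. Intron 1 had 21 IL-10 and 1 untreated read, intron 2 had 27 IL-10 and 4 untreated, and intron 3 had 45 IL-10 and 12 untreated, and these 3 had intervals above 1. The other introns had 6 IL-10 and 2 untreated, 5 IL-10 and 0 untreated, 10 IL-10 and 4 untreated, and 9 IL-10 and 2 untreated. Its tandem neighbour Bst1 encodes a related NAD-cutting enzyme (CD157) and was looked up for that reason. Bst1 had 647 IL-10 reads and 567 untreated reads (1.15, 1.03 to 1.29). No junction outside the annotation was found within Cd38. The coding sequence joined at intron 3, its most read splice, is printed with exon 4 in capitals.
Cd38 exons 3 and 4: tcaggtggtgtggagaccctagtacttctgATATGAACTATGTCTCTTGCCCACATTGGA

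**Figure D3:**
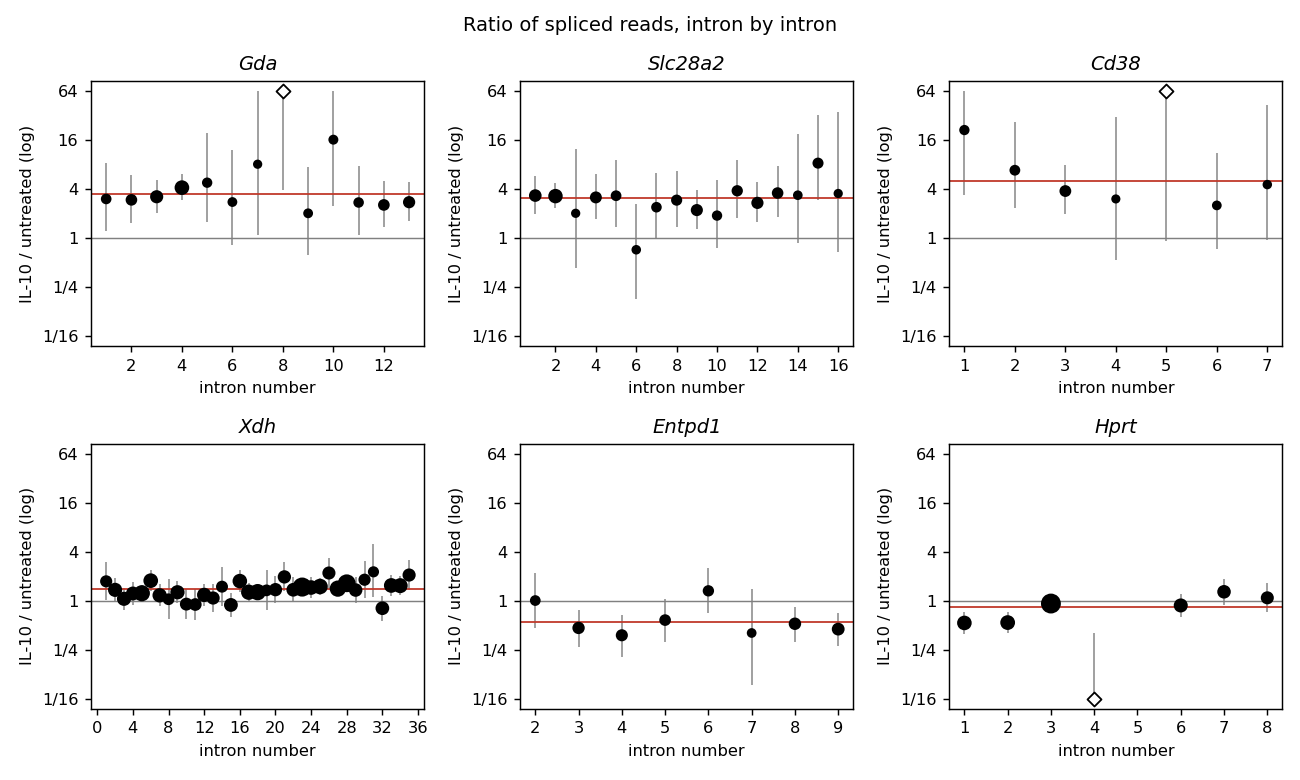
Ratio of IL-10 to untreated (y axis, log scale) for each intron with at least 5 reads, numbered from the 5′ end (x axis), in 6 of the genes. Point area grows with reads, grey bars are 95% counting intervals cut at the axis limits, diamonds at the limit mark introns with 0 reads in 1 library, and the red line is the ratio of the summed reads. All introns of Gda and Cd38 lie above 1, Hprt introns 1 and 2 lie near 0.54, its intron 4 (0 IL-10 reads) lies at the lower limit, and its other introns lie between 0.877 and 1.29.

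Splice choice was compared next. At 22 donor or acceptor sites, each read 20 times or more per library, 46 junctions were compared by their share of the reads at the site. All of these sites lay in Slc28a2, Xdh, Pnp, Hprt and Nampt. Splice choice in Gda, Cd38, Entpd1, Ada and Adk was not compared. The largest difference was 6.98 percentage points, at a Nampt donor where 3 of 43 reads with IL-10 and 0 of 43 without skipped an exon. In 0 of the 46 were the exact binomial intervals apart. Over the 112 junctions of the 10 genes with 5 or more reads, 93 lay on the side of the gene's sum. Each sum is made of these same junctions, so nothing is read from this count.

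Promoter letters of the 3 genes at least 2-fold higher are printed because these genes were higher together, as the 250 bases before the start in RefSeq (GRCm38.p6). Of the 10 genes 9 had an entry, with 11 promoters that run from 250 bases before the start to 50 after it. Motifs were searched on both strands: TTCNNNGAA (the STAT site), the same ends with 4 bases between (its wider spaced form), TGANTCA (AP-1) and GAGGAAG (PU.1). They are in capitals where found. The first occurred in 2 of the genes, Slc28a2 (TTCAAAGAA, from position -126) and Ada (TTCCGGGAA, from position -90), and in 8.30% of 32851 promoters of all genes. The spaced form was in Slc28a2 and Hprt, and in 6.95% of all promoters. AP-1 was in none of the 9 genes with an entry and in 7.81% of all promoters, and PU.1 was in Entpd1 and in 13.6%. The Slc28a2 entry belongs to the far first exon, which took 8.73% of first-exon reads with IL-10 and 7.89% without. The Gda entry is chr19:21472662-21472911 on the minus strand, the Slc28a2 entry chr2:122426185-122426434 on the plus strand and the Cd38 entry chr5:43868559-43868808 on the plus strand.
Gda promoter: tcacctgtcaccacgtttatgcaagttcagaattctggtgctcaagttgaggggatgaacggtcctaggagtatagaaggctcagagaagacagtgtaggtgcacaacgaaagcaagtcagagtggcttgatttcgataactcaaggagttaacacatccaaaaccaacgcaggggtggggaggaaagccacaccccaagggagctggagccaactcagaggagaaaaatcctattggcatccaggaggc
Slc28a2 promoter: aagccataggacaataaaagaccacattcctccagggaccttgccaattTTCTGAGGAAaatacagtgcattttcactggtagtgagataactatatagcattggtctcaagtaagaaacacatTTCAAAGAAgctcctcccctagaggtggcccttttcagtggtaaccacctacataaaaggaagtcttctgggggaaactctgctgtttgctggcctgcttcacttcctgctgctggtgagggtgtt
Cd38 promoter: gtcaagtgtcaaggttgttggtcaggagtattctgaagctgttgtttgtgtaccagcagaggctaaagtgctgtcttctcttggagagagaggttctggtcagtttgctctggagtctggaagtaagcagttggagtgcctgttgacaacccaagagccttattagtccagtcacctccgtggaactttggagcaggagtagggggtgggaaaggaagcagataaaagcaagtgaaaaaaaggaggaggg

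Other genes of purine and NAD metabolism were described on 7 lists. Of 123 genes, 72 were measured, 0 were called higher (against 1.76% of all genes) and 1 was called lower, 1.39% against 1.48%. Their median log2 ratio was 0.01. The lists leave out the 10 genes above and were chosen with earlier results of these data known, so nothing is read from these counts. None of 12 measured genes that build purines was called. The most apart were the synthesis enzyme gene Pfas, with 28 IL-10 reads and 19 untreated reads (1.48, 0.800 to 2.81), the ribose phosphate kinase gene Prps2 with 43 IL-10 and 61 untreated (0.710, 0.469 to 1.07) and the AMP synthesis gene Adssl1 with 817 IL-10 and 1138 untreated (0.723, 0.660 to 0.792). Among 20 measured genes of salvage, interconversion and breakdown none was called, with Adal (0.697, 0.360 to 1.32), the GMP reductase gene Gmpr (1.34, 0.596 to 3.11) and the deoxyguanosine kinase gene Dguok (0.769, 0.557 to 1.06) farthest from 1.

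The lists of transporters and of extracellular nucleotide breakdown came next. Slc29a1, the equilibrative transporter ENT1 that carries nucleosides down their gradient, had 347 IL-10 reads and 541 untreated reads (0.646, 0.563 to 0.741), on the other side of 1 from Slc28a2. Slc29a3 stood at 0.837 (0.695 to 1.01) and the purine base transporter gene Slc43a3 at 1.17 (0.661 to 2.08). Of 5 measured genes on the list of extracellular breakdown, Acpp was called lower with 22 IL-10 and 50 untreated reads (0.443, 0.256 to 0.746). It encodes a phosphatase that can release adenosine from AMP. Enpp1, which cuts ATP to AMP and pyrophosphate, had 378 IL-10 and 241 untreated reads (1.58, 1.34 to 1.86), and Entpd7, a relative of Entpd1, had 68 IL-10 and 47 untreated (1.46, 0.990 to 2.16). The median log2 ratio of these 5 was 0.42.

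Receptors for adenosine and nucleotides and the other NAD genes had 0 calls. The ATP-gated channel genes P2rx4 (4658 IL-10 reads and 5118 untreated reads, 0.917) and P2rx7 (277 IL-10 and 274 untreated, 1.02) and the UDP receptor gene P2ry6 (48 IL-10 and 62 untreated, 0.780) led 4 measured receptors. Among 7 measured NAD synthesis genes the NAD kinase gene Nadk had 730 IL-10 and 1029 untreated reads (0.715, 0.649 to 0.787), Naprt, which starts NAD synthesis from nicotinic acid, had 22 IL-10 and 13 untreated (1.70, 0.822 to 3.68), and Nadk2 had 62 IL-10 and 48 untreated (1.30, 0.878 to 1.94). Of 20 measured NAD-consuming enzymes, the mitochondrial deacylase gene Sirt5 had 20 IL-10 and 9 untreated reads (2.24, 0.974 to 5.58), and the ADP-ribosyltransferase genes Parp10 (1.51, 0.897 to 2.59) and Parp12 (1.36, 1.11 to 1.66) followed. The median log2 ratios were -0.06 for receptors, 0.14 for NAD synthesis and 0.04 for NAD consumption.

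**Figure D4:**
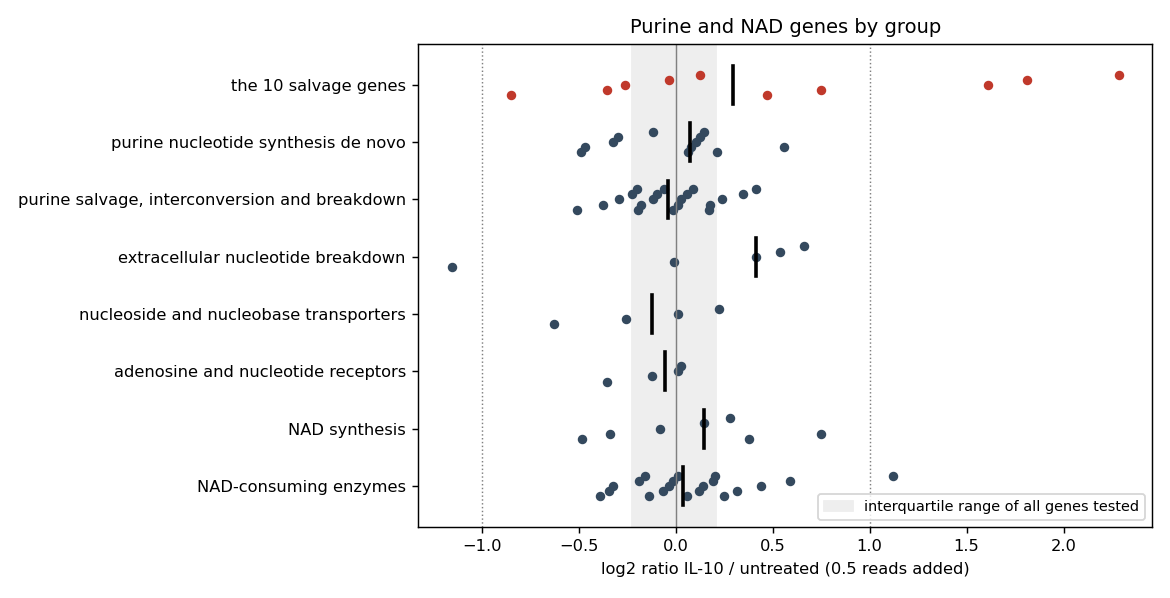
Log2 ratio of IL-10 to untreated (x axis, 0.5 reads added) for the 10 salvage genes (red) and the measured genes of 7 purine and NAD lists (blue), 1 point per gene, with a black bar at each median. Grey shading spans the interquartile range of all genes tested and dotted lines mark 2-fold. Acpp is the blue point left of -1, and Sirt5, the blue point right of 1, was not called.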

How the data were processed

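The submitters' processing notes name TopHat, Cufflinks and the build mm9, and give no version of either tool. The deposited values are counts, per the file headers from TopHat, of the reads across each splice junction, unscaled and with 1 library per group.

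Junctions were named by GENCODE M21 introns, which are on a later build: chromosome, strand and exact intron length had to match, with at least 2 introns of a gene at the same offset of up to 20 Mb. Of 131057 junctions 106738 (98.24% of IL-10 and 98.16% of untreated reads) matched a gene, and 105478 matched 1 gene. Junction coordinates are mm9. A member's value is the sum over all introns annotated to it, and other genes used introns of 1 gene. Sums were divided by the reads on introns of 1 gene. Precision is set by the reads of each gene. Ratios carry exact conditional binomial 95% intervals (Clopper-Pearson), which cover counting error only. Log2 ratios add 0.5 reads, and a ratio against 0 used a floor of 3 reads in that library.

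The members and lists were chosen with earlier results of these data known. Genes named from the lists were those called and, under 3 calls, the 3 with the largest absolute log2 ratio. Alternatives were the TMM factor of edgeR 4.0.16, the size factor of DESeq2 1.42.0, other minimums, folds and intervals, the most read intron and all junctions of the gene span. Calls were tested on simulated data. Python 3.11.15, numpy 2.4.6, scipy 1.17.1, pandas 2.3.3, matplotlib 3.10.9 and R 4.3.3 were used.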

Additional observations from a re-analysis of the deposited data

Results flagged for a closer look

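A total of 3 junctions outside the annotation had more reads in the IL-10 library than the untreated library allows by counting error. On Gda, a junction at chr19:21469777-21471222 had 14 IL-10 reads and 2 untreated reads, a ratio of 7.05 (95% interval 1.62 to 63.9). On Slc28a2, a junction from the donor of intron 2 into Gm14085, at chr2:122267392-122312579, also had 14 IL-10 and 2 untreated reads (7.05, 1.62 to 63.9). The junction from the donor of Slc28a2 intron 8 into Gm14085, at chr2:122277342-122343695, had 30 IL-10 and 11 untreated reads (2.75, 1.34 to 6.08). Each lies on the same side as the gene it belongs to. None is in the sums of Gda or Slc28a2, and both Slc28a2 junctions are in the sum over the pair with Gm14085.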

How the results depend on the processing

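The number of the 10 genes called higher was 3 under each alternative run, which included TMM and DESeq2 scaling (IL-10 over untreated 0.989 and 1, against 0.993 in the report). Of 80 member values under 8 alternatives, 72 stayed inside the interval of the value reported, but not all of them could have left it. A 99% interval does not change a ratio, and a minimum of 10 bases on each side of a junction removed no reads. On introns of 1 gene alone, only the sum of Pnp changed. On the most read intron alone Xdh stood at 1.47, Pnp at 0.939, Ada at 7.05 (7 IL-10 reads and 1 untreated read), Adk at 1.12, Entpd1 at 0.449, Hprt at 0.926 and Nampt at 0.712, and on introns of Pnp alone, an alternative added after the data were seen, Pnp stood at 1.34. Members called lower numbered 1 (Entpd1) on the most read intron and at 1.5-fold. Over all genes, calls numbered 107 higher and 77 lower with a 99% interval, 203 higher and 188 lower with no minimum of reads, 37 higher and 10 lower with at least 100 reads, 357 higher and 336 lower at 1.5-fold, and 53 higher and 29 lower at 3-fold. On the pathway lists 1 was higher and 0 lower on the most read intron, 0 lower with at least 100 reads or at 3-fold, and 1 higher and 2 lower at 1.5-fold. No paired analysis was possible because each group has 1 library. Depth limits Ada, Adk and Cd38 most, since a few reads decide the value of each intron.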

Other observations

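The 14 IL-10 and 2 untreated reads on the unnamed Gda junction lie on an intron of 1446 bases, the length of Gda intron 12, placed 774 bases away from it, which is the length of Gda intron 13. A second unnamed Gda junction, with 1 IL-10 read and 0 untreated reads, has the length of intron 5 (3596 bases) and lies 2266 bases from it, the length of intron 6. Gda exons 13 and 6, which lie between these pairs of introns, are each 28 bases long.
Gda exon 13: GCTGTTATCCAGAAGTTTCTTTATCTAG
Gda exon 6: ATTTGTGTCAGAAATGCTGCAAAAGAAT
Over both libraries 191 of 24319 unnamed junctions (0.785%) were displaced in this way, by exactly the length of a named intron at most 100 bases away from the one they resemble, with 1259 IL-10 reads and 1110 untreated reads. Unnamed junctions that share a site with Slc28a2 or lie within it made up 12.1% of named and unnamed reads together with IL-10 and 12.7% untreated. For Xdh the shares were 0.261% with IL-10 and 0.323% untreated.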
